A study of Mus musculus with 3 samples.

Results

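The nuclear factor I (NFI) genes Nfia, Nfib, Nfic and Nfix were examined for peaks of 5-hydroxymethylcytosine (5hmC) in mouse cerebellum DNA. A peak was assigned to a gene where it overlapped the gene body or the 5 kb upstream of its start in the GENCODE M39 annotation of GRCm39. In all, 29 of the 14209 peaks of the series met this rule, and merging overlapping peaks of different replicates left 25 of 13342 regions. The data came from hydroxymethylated DNA immunoprecipitation (hMeDIP), in which an antibody against 5hmC pulls down sonicated DNA, followed by nanopore sequencing of the pulled-down fragments. All 3 replicates were untreated cerebellum DNA of 1 female C57Bl6Cr mouse of 8 weeks, with no genetic change or agent in any of them. The antibody was whole serum in replicate 1 and IgG-purified in the other 2 replicates. There was a single group and no contrast between conditions, and the spread between replicates was that of repeat reactions on 1 animal, not that between mice. Since antibody and replicate 1 cannot be told apart, differences between replicate 1 and the others cannot be assigned to either. DNA of a whole cerebellum mixes granule neurons with other neurons and glia, and the tissue label could not be checked against marker genes because no RNA was measured.

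NFI proteins are transcription factors that bind DNA as dimers through a conserved amino-terminal domain, at a palindrome of TTGGC and its reverse complement GCCAA. The 4 genes make closely related proteins with different carboxy-terminal parts and many splice forms. In the cerebellum they are known for the maturation of granule neurons, the most numerous neurons of this tissue, and Nfia and Nfib are also known for the onset of glial development. 5hmC is made from 5-methylcytosine (5mC) by TET enzymes, is abundant in neurons and is commonly found within the bodies of transcribed genes. None of the values below measure transcription.

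The sequences around 4 peak summits are shown first, 1 for each gene, so that the CpG sites behind the values can be seen. Nfib and Nfic are represented by their region with a peak in more than 1 replicate. For Nfia, which had no such region, the peak of highest fold enrichment was taken. Both such regions of Nfix lay in its 3′ untranslated region, and the Nfix peak of highest fold enrichment outside untranslated regions is shown in their place. Each line gives 201 bases of the GRCm39 forward strand centred on the summit, with the CpG sites that carried at least 1 5hmC call in any replicate in capitals.

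Nfia region 4, chr4:97829984-97830184: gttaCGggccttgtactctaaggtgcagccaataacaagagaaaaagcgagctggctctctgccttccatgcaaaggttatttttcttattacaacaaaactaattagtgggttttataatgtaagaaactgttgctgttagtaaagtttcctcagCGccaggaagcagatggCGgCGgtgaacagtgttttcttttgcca
Nfib region 6, chr4:82336194-82336394: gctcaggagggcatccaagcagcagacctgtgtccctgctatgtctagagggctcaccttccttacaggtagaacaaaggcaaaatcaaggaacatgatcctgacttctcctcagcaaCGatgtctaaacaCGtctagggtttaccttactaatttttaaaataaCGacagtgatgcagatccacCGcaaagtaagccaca
Nfic region 1, chr10:81268435-81268635: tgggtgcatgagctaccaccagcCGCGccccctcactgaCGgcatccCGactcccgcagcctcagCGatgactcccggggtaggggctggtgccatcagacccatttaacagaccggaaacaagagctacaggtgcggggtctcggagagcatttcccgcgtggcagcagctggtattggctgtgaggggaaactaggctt
Nfix region 1, chr8:85518670-85518870: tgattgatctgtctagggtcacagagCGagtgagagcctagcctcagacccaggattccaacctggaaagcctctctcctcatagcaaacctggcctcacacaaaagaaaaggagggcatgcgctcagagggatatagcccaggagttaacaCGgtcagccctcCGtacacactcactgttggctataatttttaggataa

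In the Nfia window 4 of 5 CpG sites carried a 5hmC call, in the Nfib window 4 of 4, in the Nfic window 5 of 12 and in the Nfix window 3 of 4. The Nfia, Nfib and Nfix windows were thus marked at nearly all of their few CpG sites, whereas most of the CpG sites in the denser Nfic window had no 5hmC call. All 4 windows lay in introns or upstream of the canonical transcript, without an untranslated base.

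Peaks were found in all 4 genes, in replicates 2 and 3 but not in replicate 1. Nfia (ENSMUSG00000028565.20, chr4:97660971-98007111, forward strand, 346 kb) had 0, 4 and 3 peaks over replicates 1, 2 and 3. Nfib (ENSMUSG00000008575.19, chr4:82208410-82623987, reverse strand, 416 kb) had 0, 7 and 3 peaks. Nfic (ENSMUSG00000055053.20, chr10:81232020-81291469, reverse strand, 59.5 kb) had 0, 1 and 2 peaks. Nfix (ENSMUSG00000001911.18, chr8:85426505-85527046, reverse strand, 101 kb) had 0, 5 and 4 peaks. In sum the genes held none of the 497 peaks of replicate 1, 17 of the 8546 peaks of replicate 2 and 12 of the 5166 peaks of replicate 3, which gives a mean of 9.67 ± 8.74 peaks (SD, n = 3). Replicate 1 also had the shortest peak list. There 1.89% of all 21603 protein-coding genes on chromosomes 1 to 19 and X had a peak, against 16.6% in replicate 2 and 12% in replicate 3. The paper's reporting summary nevertheless lists the most mapped reads for its replicate 1, and why that list was short was not tested. With any replicate counted, 21.9% of protein-coding genes had at least 1 region. Without replicate 2 the mean was 6 peaks.

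**Figure D1:**
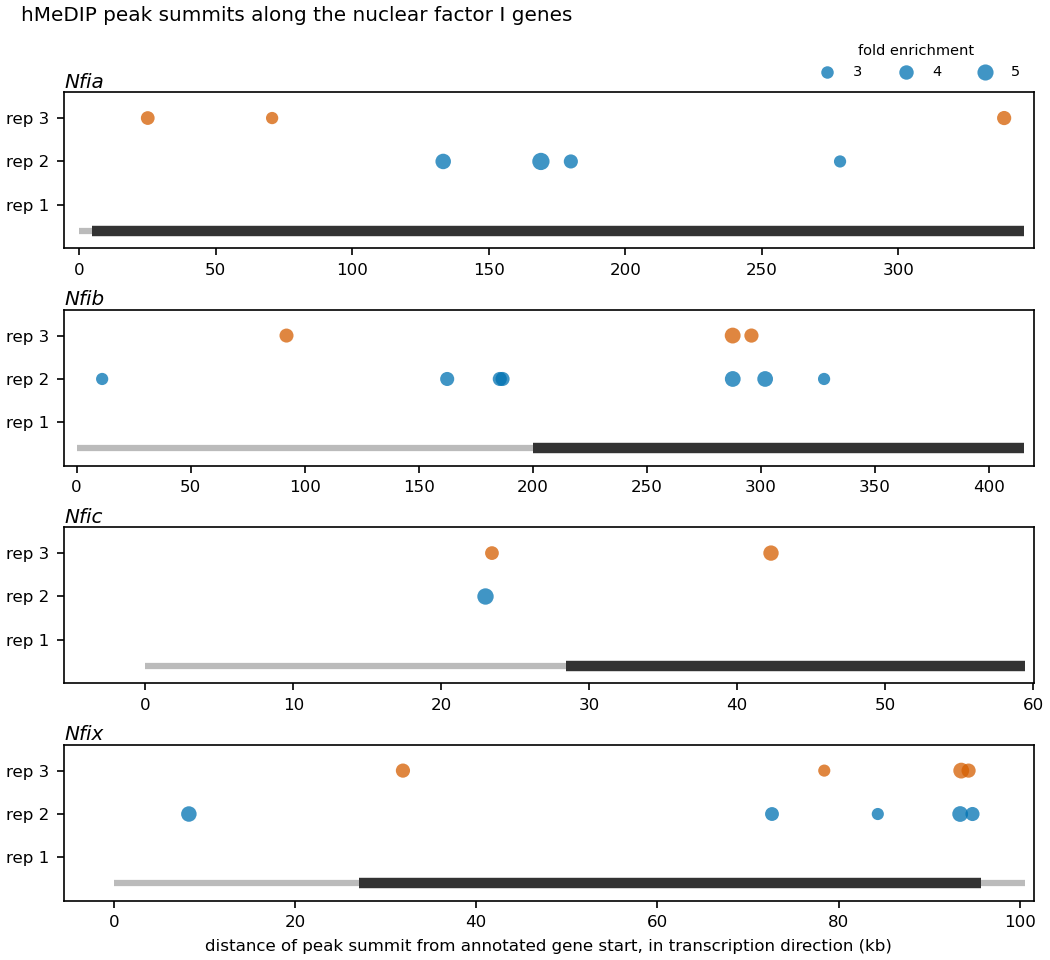
Summits of the 29 NFI peaks by distance from the annotated gene start in kb, 1 panel per gene and 1 row per replicate, with point area proportional to fold enrichment; the grey bar is the annotated gene and the black bar its canonical transcript. No point lies in the row of replicate 1 or upstream of a gene start, and the Nfix panel has both of its shared regions near the 3′ end.

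Long genes have more room for peaks, so each NFI gene was ranked among protein-coding genes of like length, which spanned 277 to 433 kb for Nfia, 333 to 518 kb for Nfib, 47.6 to 74.3 kb for Nfic and 80.5 to 126 kb for Nfix. This rank is a description of the genome in these 3 libraries and carries no p-value. Nfix stood highest: its 7 merged regions compare with a median of 0 (maximum 16) in 1383 genes of like length, of which 54 (3.90%) had at least as many. Nfib had 9 regions against a median of 1 (maximum 50) in 271 genes, and 16.2% of them had at least as many. Nfia had 7 regions against a median of 1 (maximum 38) in 343 genes, with 18.4% at or above it. Nfic had 2 regions against a median of 0 (maximum 13) in 1909 genes, with 15.2% at or above it. In the classes of Nfia, Nfib, Nfic and Nfix, 37.0%, 38.7%, 67.5% and 57.8% of genes had no region. A single region thus passes the median of 0 in the classes of Nfic and Nfix. All 4 genes lay above the median of their length class, and Nfix had the smallest share of genes at or above it. Among peaks with a fold enrichment of at least 4 that place went to Nfic, with 3.40% against 4.48% for Nfix. Taken by replicate, 3.90% of genes of like length had at least the 5 peaks of Nfix in replicate 2 and 2.60% at least its 4 peaks in replicate 3. For Nfib these shares were 12.5% and 20.3%, for Nfia 23.9% and 18.1%, and for Nfic 25.1% and 6.44%. Nfix was thus the highest-ranked of the 4 in both replicates, whereas the order of the other 3 changed between them. In replicate 1, where the NFI genes had no peak, 88.0% to 96.9% of the genes of like length had none either.

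**Figure D2:**
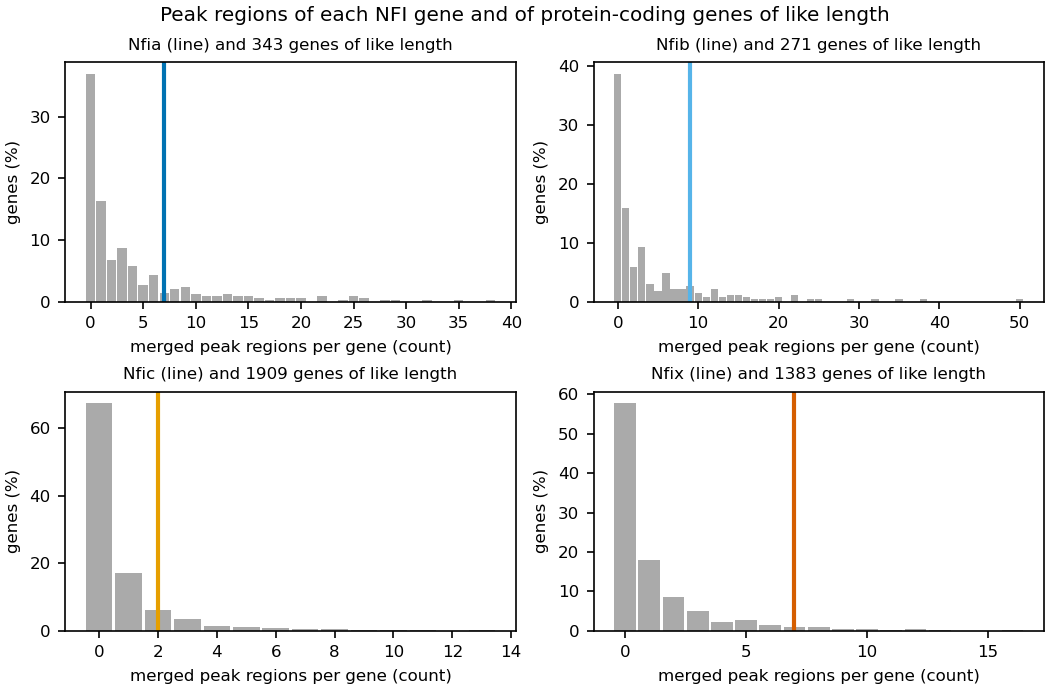
Share of protein-coding genes of like length (%, grey bars) by number of merged peak regions per gene, with a coloured line at the count of the NFI gene of each panel. The line of Nfix at 7 regions stands in the thin tail, with 3.90% of genes at or beyond it, and the lines at 7 for Nfia, 9 for Nfib and 2 for Nfic have between 15.2% and 18.4%.

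The 4 genes also differ in CpG content, with 9.32 CpG per kb in Nfia, 10.3 in Nfib, 19.8 in Nfic and 19.8 in Nfix, where the median gene of like length had 8.06, 7.75, 10.8 and 10.1. Ranked by regions per 1000 CpG dinucleotides, Nfix had 3.35 and 7.95% of genes of like length reached it. The share was 16.6% for Nfia, 15.5% for Nfib and 20.01% for Nfic. By count of regions, the rank of Nfic rested on few peaks: beside 15.2% with all replicates, there were 7.02% of genes at or above it without replicate 2 and 25.9% without replicate 3.

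Genes of like length whose peaks were spread over the replicates most like those of the NFI genes were named for reference, by the smallest summed difference in peak number over the 3 replicates. Mad1l1, a mitotic checkpoint gene, and Myt1l, a neuronal transcription factor, both had the same 0, 4 and 3 peaks as Nfia. Fstl4 and Sh3gl2 each had 0, 6 and 3 peaks and so differed from Nfib by 1 peak, with 3 genes tied at that distance. Taf4 and Tmtc4 had the 0, 1 and 2 peaks of Nfic, a pattern shared by 15 genes. Zfp532 and Atp2b1, a plasma membrane calcium pump, had the 0, 5 and 4 peaks of Nfix.

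The fold enrichment of a peak compares reads at its summit with the local background, both plus 1 read. It ranged from 2.84 to 5.74 with a median of 3.83 over the 17 NFI peaks of replicate 2, and from 2.84 to 4.84 with a median of 3.87 over the 12 of replicate 3. The median differed from that of peaks in genes of like length by 0.00567 ± 0.00794 (SD, n = 2 replicates; two-sided exact sign-flip permutation test, p = 0.5, the smallest that 2 replicates can give). The medians of NFI peaks and of those peaks thus lay within 0.0113 of each other in both replicates. By the mean in place of the median the difference was 0.205 ± 0.134, with 4.04 against 3.74 in replicate 2 and 3.87 against 3.77 in replicate 3. Converted with the background of each list and rounded to whole reads, 19 of the 29 peaks rested on an estimated 3 reads or fewer at the summit and 10 on 4 or 5. The highest was an Nfia peak in intron 2 (region 4, replicate 2, fold enrichment 5.74, an estimated 5 reads), and 2.46% of all peaks of that replicate reached it.

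The single peaks show how this enrichment was spread within each gene. The 4 Nfia peaks of replicate 2 had a fold enrichment of 4.62, 5.74, 3.83 and 2.87 from start to end of the gene, and the 3 of replicate 3 had 3.64, 2.90 and 3.87. No Nfia peak of replicate 2 lay at one of replicate 3. The 7 Nfib peaks of replicate 2 ranged from 2.87 in regions 1 and 9 to 4.79 in region 6, and the 3 of replicate 3 had 3.78, 4.84 and 3.87 in regions 2, 6 and 7. Region 6 was the highest Nfib peak in both replicates. The 3 Nfic peaks had 5.16 in replicate 2 and 3.64 and 4.55 in replicate 3. Nfix peaks ranged from 2.84 in region 5 to 4.77 in region 6 in replicate 2, and from 2.84 in region 4 to 4.83 in region 6 in replicate 3, so that region 6 was the highest Nfix peak in both. Merged regions were 302 to 1294 bp long with a median of 462 bp, and held 0.658 to 7.21 CpG sites per 100 bp with a median of 1.72.

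None of the 25 regions lay in the 5 kb upstream of a gene, and the middle of the nearest one was 8.24 kb inside the annotated start of Nfix. These windows are short beside genes of 59.5 to 416 kb, and the share over all genes was not counted. The 0 therefore shows no lack of peaks upstream. With each gene cut into 4 equal stretches from start to end, the regions numbered 5, 7, 6 and 7. Of the 25 regions, 19 touched no exon of the canonical transcript. Among these 19, 10 had their middle in its intron 2, 5 of them in Nfia, 3 in Nfib and 1 each in Nfic and Nfix. Another 7 of the 19 lay outside the canonical transcript, all upstream of it. In Nfib, 5 of these lay in the long first part that a single longer annotated transcript covers. The intronic share of gene length and of all regions was not counted, so these numbers show no preference for introns. Of those 5, 3 (Nfib regions 3, 4 and 5) also overlapped Gm11266, a long non-coding RNA gene on the opposite strand.

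The 6 regions that touched an exon were 1 in Nfia and 5 in Nfix. Nfia region 7 lay wholly in the 3′ untranslated region of exon 11. Nfix regions 3, 4 and 5 lay mostly in introns. Region 3 (304 bp) covered 79 coding bases of exons 3 and 4, region 4 (302 bp) covered 61 of exon 8 and region 5 (901 bp) covered 148 of exon 9. Nfix regions 6 (1294 bp) and 7 (735 bp) lay wholly in the 3′ untranslated region of exon 11, and a short Nfix transcript without an annotated coding sequence starts within region 6. No region of Nfib or Nfic touched an exon.

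Of the 25 regions, 4 (16%, exact binomial 95% confidence interval 4.54 to 36.1%) held a peak in both replicates 2 and 3, beside 6% of all 13342 regions with a peak in at least 2 replicates. Of the rest, 13 had a peak only in replicate 2 and 8 only in replicate 3. No peak of replicate 1 overlapped them. Nfia had none of the shared regions, Nfib 1, Nfic 1 and Nfix 2. Where peaks had to cover at least 0.5 of each other, 2 of 27 (7.41%) were shared, Nfib region 6 and Nfix region 7, beside 2.71% of all regions. Among peaks with a fold enrichment of at least 4, 2 of 8 regions (25%) were shared, beside 5.76%. At an estimated 2 to 5 reads per peak, a region without a peak in a replicate is not shown to lack 5hmC there.

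The base-calls give the modification state of the pulled-down reads themselves, which the antibody had selected. At each CpG site the calls on the forward strand were counted as 5hmC, 5mC or unmodified C. No reverse-strand rows were used here, and the sources used here do not say whether such calls were left out or combined with these. Near summits with an estimated 3 reads the sites had a mean of 1.46 to 1.49 calls, so a site without a 5hmC call, or unmodified throughout, is so only in the reads counted. Depth was low: the regions held 591 calls at 411 site-replicate combinations, 264 of which (64.2%) had 1 call, and no site exceeded 4 calls in a replicate. Of the 25 regions, 19 had at least 1 5hmC call, and Nfia region 2 and Nfib region 9 had no CpG call in any replicate. The paper's methods state that repeats flagged by RepeatMasker were masked when calls were extracted. Whether masking left these regions without calls was not tested. Confidence intervals below are exact binomial at 95% and cover counting error only, since calls of 1 read are not independent.

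Within the replicate's own NFI peaks 77 of 312 calls were 5hmC in replicate 2 (24.7%, interval 20 to 29.9%). The count for replicate 3 was 36 of 155 (23.2%, interval 16.8 to 30.7%). The mean was 24.0% ± 1.03 (SD, n = 2) for 5hmC, 28.5% ± 5.36 for 5mC and 47.6% ± 4.33 for unmodified C. Peaks in genes of like length had a higher 5hmC share in both replicates, 34.3% in replicate 2 and 33.1% in replicate 3. The difference was −9.77 ± 0.156 percentage points (SD, n = 2; two-sided exact sign-flip permutation test, p = 0.5, the smallest possible), lower in 2 of 2 replicates. With at least 3 calls per site, which left 27 site-replicate combinations in the NFI peaks, it was −8.52 points in replicate 2 and 5.50 in replicate 3 (mean −1.51 ± 9.92, p = 1 by the same exact test), so the replicates no longer had the same direction. Unmodified C was higher by 20.01 ± 4.46 points on the same comparison. At 3 calls per site it too differed in direction, with 20.5 points in replicate 2 and −13.3 in replicate 3. Against all other peaks of the replicate the 5hmC difference was −3.95 ± 0.150 points, but 6.82 points in replicate 2 and 17.3 in replicate 3 with at least 3 calls per site, the opposite direction. The 2 regions in the Nfix 3′ untranslated region, described below, weighed on these values. Without them the 5hmC share was 30.3% ± 0.113, with a difference of −3.41 ± 0.985 points from the peaks of genes of like length and of 2.41 ± 0.991 points from all other peaks, so that the second difference turned direction. Only the NFI side was cut in this way, and CpG-dense regions among the other peaks were kept. As the 2 regions had a low 5hmC share, a rise of the NFI share followed from leaving them out. All other peaks include regions with a CpG site of at least 20 calls. With those left out the difference from all other peaks was −7.74 ± 0.715 points with all NFI peaks and −1.38 ± 0.426 without the Nfix 3′ untranslated region, so the turn depended on them. With those left out and at least 3 calls per site, it was −5.07 points in replicate 2 and 5.06 in replicate 3. At 3 calls, then, the replicates no longer shared a direction. Without the Nfix 3′ untranslated region alone, unmodified C was still higher than in peaks of genes of like length, by 11.4 ± 2.56 points.

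Replicate 1 had calls in these regions even though it had no NFI peak. Over the 25 merged regions 13 of its 78 calls were 5hmC (16.7%, interval 9.18 to 26.8%), and 63 of the 78 calls came from the Nfix 3′ untranslated region. In the 5 regions where it had calls, the replicate had 13 calls in Nfic region 1, 19 in Nfix region 6, 44 in Nfix region 7 and 1 each in Nfib regions 2 and 4. Taking all replicates, calls in regions where the replicate had no peak of its own were 5hmC in 21 of 94 cases (22.3%, interval 14.4 to 32.1%). That value rested on replicate 1, as replicates 2 and 3 had 3 of 7 and 5 of 9 such calls.

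**Figure D3:**
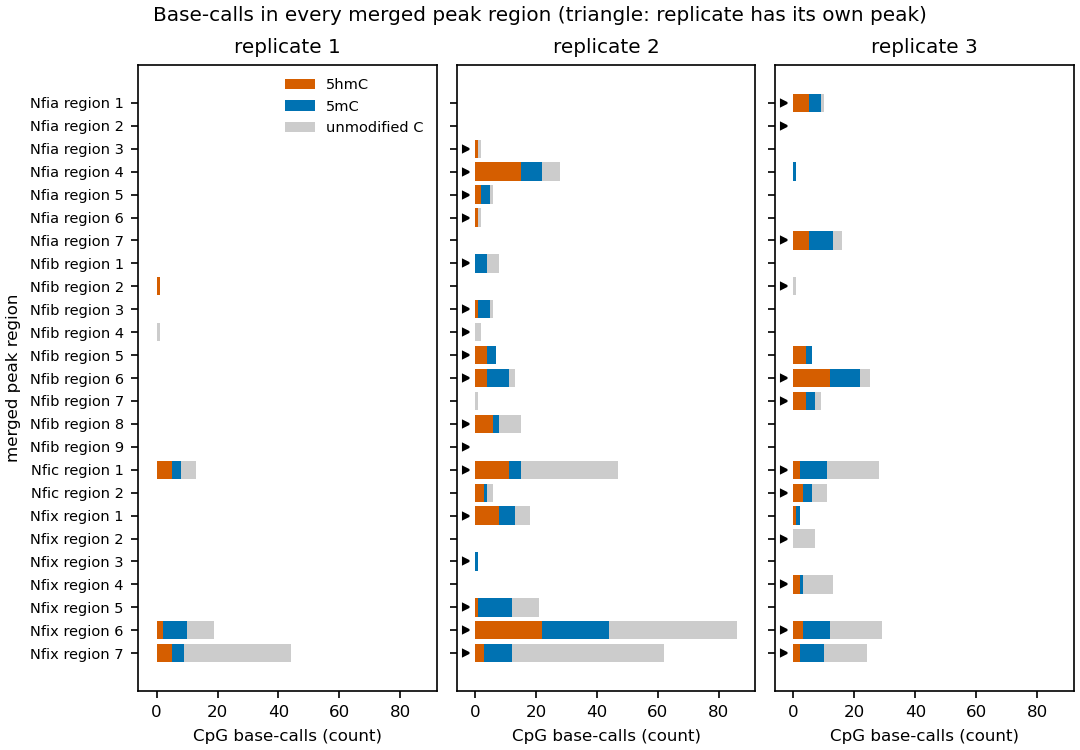
Number of CpG base-calls in each of the 25 merged NFI regions, 1 panel per replicate, stacked as 5hmC, 5mC and unmodified C, with a black triangle where the replicate had its own peak. Nfix region 6, with 19, 86 and 29 calls, has the longest bar in the panels of replicates 2 and 3, and replicate 1 has calls in 5 regions without a peak.

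Split by gene, the 5hmC share was highest in Nfia and Nfib. Over replicates 2 and 3, in that order, Nfia had 50.0% of 38 calls and 38.5% of 26. In Nfib it was 27.7% of 47 and 45.7% of 35. In Nfic it was 23.4% of 47 and 14.3% of 21. In Nfix it was 18.9% of 180 and 9.59% of 73. In each replicate the values of Nfia and Nfib lay above those of Nfic and Nfix, but the order of Nfia and Nfib turned between the replicates, the intervals of Nfia and of Nfib overlapped that of Nfic in both, and that of Nfib overlapped that of Nfix in replicate 2.

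Grouping the genes in pairs after these values were seen, Nfia and Nfib together had 37.6% 5hmC (interval 27.4 to 48.8%) in replicate 2 and 42.6% (30.04 to 55.9%) in replicate 3. Nfic and Nfix had 19.8% (14.8 to 25.6%) and 10.6% (5.22 to 18.7%). Since these values formed the pairs, they are given as a description. Unmodified C went the other way, with 28.2% and 16.4% in Nfia and Nfib against 59.0% and 62.8% in Nfic and Nfix. Over all merged regions outside the Nfix 3′ untranslated region, Nfic and Nfix had 21.6% 5hmC of 167 calls (interval 15.6 to 28.6%), against 40.6% of 160 (32.9 to 48.7%) in Nfia and Nfib. By replicate the intervals overlapped in replicate 2, with 24.7% (16.4 to 34.8%) against 37.8% (27.8 to 48.6%). They lay apart in replicate 3, with 13.1% (5.84 to 24.2%) against 44.1% (32.1 to 56.7%). Replicate 1 had 5 of 13 calls 5hmC in Nfic and Nfix and 1 of 2 in Nfia and Nfib.

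Nfia regions had few CpG sites and mostly few calls. The 3 with at least 10 calls were region 1 in intron 2, with 5 of 10 calls 5hmC in replicate 3, region 4 in intron 2, with 15 of 28 in replicate 2 and none of 1 in replicate 3, and region 7 in the 3′ untranslated region, with 5 of 16 in replicate 3. No Nfia region had a call in replicate 1. Regions 3, 5 and 6 had 2, 6 and 2 calls, all in replicate 2.

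In Nfib the shared region 6 (chr4:82335994-82336588, intron 2, 45.4% GC, 11 CpG sites) had a fold enrichment of 4.79 in replicate 2 and 4.84 in replicate 3. It had 4 5hmC, 7 5mC and 2 unmodified calls in replicate 2 and 12, 10 and 3 in replicate 3, so modified calls far outnumbered unmodified ones in both. Of 9 sites called in both replicates, 4 had 5hmC in both and none was unmodified throughout. Region 8, also in intron 2, had 6 of 15 calls 5hmC in replicate 2. Region 5, opposite Gm11266, had 4 of 7 in replicate 2 and 4 of 6 in replicate 3, although only replicate 2 had a peak there. Region 1, in the longer transcript, had 0 of 8 calls 5hmC, which allows a share of up to 36.9%.

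In Nfic the shared region 1 (chr10:81267799-81268822) lay upstream of the canonical transcript, in an intron of the longest transcript and 0.926 kb from the nearest annotated transcript start. Its fold enrichment was 5.16 in replicate 2 and 3.64 in replicate 3. Over replicates 1, 2 and 3 it had 5 of 13, 11 of 47 and 2 of 28 calls 5hmC, with 5, 32 and 17 unmodified calls. Over the whole region the 5hmC share was lowest in replicate 3. Within the peaks themselves, 0 of 10 calls were 5hmC in replicate 3 (302 bp) and 11 of 47 in replicate 2 (991 bp). Why the replicates differed was not tested. Of 16 sites called in at least 2 replicates, 4 had 5hmC in at least 2 and 2 were unmodified throughout. Region 2, in intron 2, had 3 of 6 calls 5hmC in replicate 2 and 3 of 11 in replicate 3.

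The Nfix regions outside the 3′ untranslated region differed among themselves. Region 1, in an intron before the canonical transcript, had 8 of 18 calls 5hmC in replicate 2 and 1 of 2 in replicate 3. For the 3 regions that partly covered coding exons, calls were counted over the whole region, introns included. Region 5 had 1 of 21 calls 5hmC (interval 0.120 to 23.8%) and region 4 had 2 of 13 (1.92 to 45.4%). Region 3 had 1 call, a 5mC. Region 2, in intron 2, had 0 of 7 calls, which allows a share of up to 40.96%. Taken over the 5 regions the share was 19.4% of 62 calls (interval 10.4 to 31.4%).

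The Nfix 3′ untranslated region held 264 of the 591 calls of all NFI regions (44.7%). Region 6 (chr8:85433301-85434594) had a fold enrichment of 4.77 in replicate 2 and 4.83 in replicate 3, and 5hmC in 2 of 19, 22 of 86 and 3 of 29 calls over replicates 1, 2 and 3. Region 7 (chr8:85432096-85432830), with a fold enrichment of 3.83 and 3.87, had 5 of 44, 3 of 62 and 2 of 24, lower than region 6 in replicate 2 and close to it in replicates 1 and 3. Its unmodified calls numbered 35, 50 and 14, the larger part in every replicate. Region 7 was also the region richest in CpG, with 7.21 per 100 bp and an observed-to-expected CpG ratio of 0.98, against 5.18 and 0.52 in region 6. Of 43 sites of region 7 called in at least 2 replicates, 23 were unmodified in every call and 0 had 5hmC in 2 replicates. In region 6 these were 7 and 3 of 35. Region 7 thus was called as a peak in 2 replicates with an overall 5hmC share of 7.69% (interval 3.75 to 13.7%), and why it was pulled down was not tested.

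The 5hmC share tended to be lower at higher CpG density across the 18 NFI regions with at least 5 calls (Spearman's rho = −0.487, a description across regions that share libraries and genes). In bins of density the NFI regions had 41.2% 5hmC of 153 calls at 1 to 2 CpG per 100 bp, 21.2% of 165 at 2 to 4 and 14.0% of 264 at 4 or more. All other regions had 36.5%, 32.1% and 21.6% in the same bins, after leaving out 13 regions with a CpG site of at least 20 calls. With those 13 regions kept, they had 35.7%, 21.6% and 20.7%, beside which the NFI value of 21.2% at 2 to 4 CpG per 100 bp was nearly the same. At 4 or more it was lower either way, but rested on 2 regions. Below 1 CpG per 100 bp, 5 NFI regions had 33.3% 5hmC of 9 calls, against 38.7% in all other regions, too few calls to place this bin in the order. Between the gene pairs, density ran from 0.658 to 2.65 CpG per 100 bp in Nfia and from 0.658 to 1.97 in Nfib, against 1.30 to 2.73 in Nfic and 1.97 to 7.21 in Nfix. Its part in the difference between the gene pairs was not tested.

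**Figure D4:**
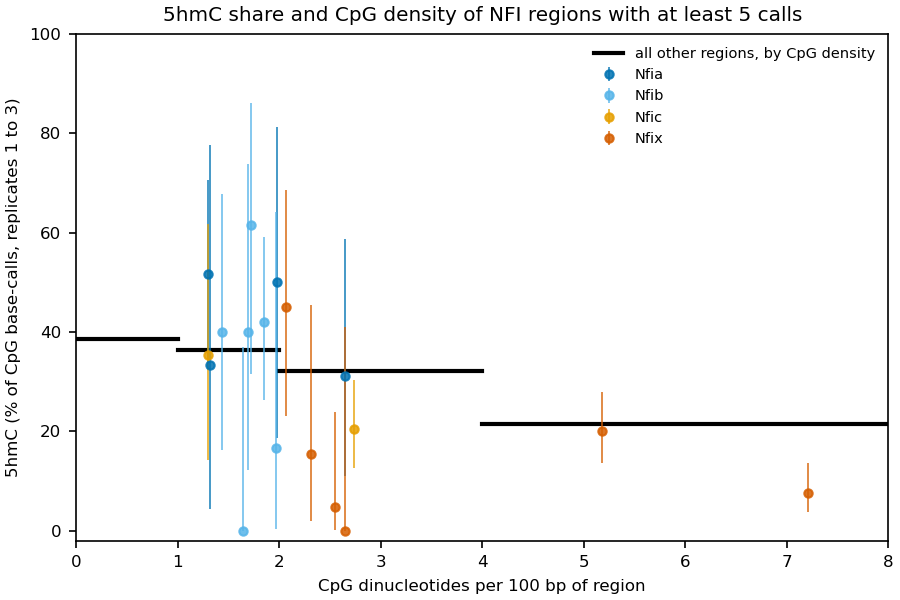
5hmC share of base-calls over all replicates (%) against CpG dinucleotides per 100 bp for the 18 NFI regions with at least 5 calls, with exact binomial 95% intervals; black lines give the pooled share of all other regions in 4 density bins, without regions that have a CpG site of at least 20 calls. Nfix region 7 lies at the far right with 7.69%, and most Nfia and Nfib points lie left of 2 CpG per 100 bp.

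The recognition unit of the NFI proteins themselves, TTGGC or GCCAA on the forward strand, which covers both strands, was looked for within 301 bp centred on each summit. It was present at 16 of the 29 NFI peaks (55.2%) and at 43.2% of 14178 other peaks. The full palindrome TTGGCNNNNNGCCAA, which contains the shorter unit, was at 0 of the 29 and at 6 of the other peaks (0.0423%). Of the printed windows, those of Nfia, Nfic and Nfix hold the shorter unit 1 time each and that of Nfib does not. A match of these letters is a description of sequence and not a binding site.

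Other genes of the same setting were counted for context. Of 17 transcription factor genes of cerebellar granule neurons, 7 (41.2%) had at least 1 region, beside 21.9% of all protein-coding genes, and their median was 0 regions, as over all genes. Meis1 had 3 regions with 41.9% of 31 calls 5hmC, Etv1 had 2 with 28.6% of 21, and Mef2d had 2 with 34.4% of 32. The other factors with at least 10 calls, named after their values were seen, were Neurod2 and Pax6, each with 1 region and 13.3% of 15 calls. Of 10 genes that NFI factors are known to regulate in granule neurons or glia, 4 (40%) had a region, also with a median of 0. Ephb1, an ephrin receptor gene of 433 kb, had 22 regions from 1, 12 and 11 peaks, with 40.3% of 268 calls 5hmC. Grin2c, an NMDA receptor subunit gene of mature granule neurons, had 5 regions within 18.5 kb and 35.6% of 132 calls 5hmC. Cdh2, the gene of N-cadherin, had 3 regions and 38.1% of 21. Among genes of like length, 19.2% had at least as many regions as Meis1, 22.5% as Etv1 and 6.86% as Mef2d. For Ephb1, Grin2c and Cdh2 these shares were 3.44%, 0.221% and 30.8%. No region was found at Gabra6, Gfap, Aqp4, Slc1a3, Fabp7 or Wnt7a.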

How the data were processed

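Peak lists and CpG base-call tables of the 3 hMeDIP replicates were analysed. The authors aligned the reads to mm39 (GRCm39) and called peaks with MACS2 on each replicate with untreated DNA of that sample as input. The deposited peak lists give a fold enrichment (a ratio), −log10 p- and q-values, a display score and the summit. The largest q-value was 0.0467. The deposited base-call tables give counts of 5hmC, 5mC and unmodified C and their percent of valid calls at each CpG that they list, on the forward strand. Near summits of peaks with an estimated 3 reads they held a mean of 1.46 to 1.49 calls per site. The tables held 69910, 104238 and 75624 calls in replicates 1, 2 and 3, with a median of 1 per site, so that shares of single regions are imprecise.

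Peaks were joined at an overlap of at least 1 bp, shares were summed calls over all sites with at least 1 call, and reads at a summit were estimated as fold enrichment times 1 plus the background, minus 1, with the background (0.0446 reads in replicate 2 and 0.0331 in replicate 3) chosen so that each list's most common fold enrichment stood for a whole number of reads, a lower estimate where the local background was higher. The exact sign-flip test planned over 3 replicates (smallest p = 0.25) became one over 2, since replicate 1 had no NFI peak. The genes named by rule were the 4 NFI genes, the 2 genes of like length with the closest peak numbers for each, ties broken by length, and the 3 genes with most regions of each list. Outside that rule, Neurod2 and Pax6 were named after their values were seen. Gm11266 was named for its overlap, and the genes of the second list without a region were named too. The members, lists and gene pairs were chosen with earlier results of these data known. Alternatives covered the peak threshold, overlap, gene span, length class, coverage minimum, weighting, comparator and each replicate left out. The tools were scipy 1.17.1, pysam 0.24.0, pandas 2.3.3, numpy 2.4.6 and matplotlib 3.10.9 under Python 3.11.15, and the functions were tested on simulated data. Blacklist removal, stated in the methods, was not repeated.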

Additional observations from a re-analysis of the deposited data

How the results depend on the processing

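The values given here are those that moved by over 1.5 times for a number of peaks, by over 1 SD for a share of calls, or out of the 95% binomial interval for a share of genes or regions. Replicate 1 had no NFI peak, so leaving it out could not change shares or differences within own peaks. The differences from genes of like length were judged by the sign of their mean alone, which held for 5hmC and fold enrichment, although at 3 calls per site the 5hmC difference was −1.51 ± 9.92 points with replicates of opposite sign. The 5hmC difference from all other peaks, −3.95 points, turned to 2.41 without the Nfix 3′ untranslated region, a cut on the NFI side only, and to 12.1 at 3 calls per site. With regions of at least 20 calls at a CpG left out, chosen after seeing the data, these were −7.74, −1.38 and −0.00382 points, the last with −5.07 in replicate 2 and 5.06 in replicate 3. The cause was not tested. At a fold enrichment of at least 4 the mean of NFI peaks was 3.33 per replicate and the share of genes of like length reaching Nfic was 3.40%. Per 1000 CpG that share was 20.01% for Nfic and 7.95% for Nfix. With canonical transcripts as gene spans, chosen after seeing the data, it was 21.3% for Nfib and 7.27% for Nfic. With at least 3 calls per site the NFI peaks had 30.3% 5hmC, 35.5% 5mC and 34.2% unmodified C, and at least 5 calls left no site. Over all sites of the merged regions, replicate 1 included, they had 21.7% 5hmC and 52.7% unmodified C. Without the Nfix 3′ untranslated region, also chosen after seeing the data, 5hmC was 30.3%.

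Leaving out each replicate in turn gave a mean of 6 to 14.5 peaks. Without single replicates the rank share ran from 18.4% to 23.9% for Nfia, 12.5% to 21.0% for Nfib, 7.02% to 25.9% for Nfic and 3.04% to 4.34% for Nfix. The shares of calls were 23.2% to 24.7% for 5hmC, 24.7% to 32.3% for 5mC and 44.5% to 50.6% for unmodified C. The 5hmC difference from genes of like length ran from −9.88 to −9.66 points and that of fold enrichment from 6e-05 to 0.0113. The share of regions with peaks in 2 replicates was 0% to 16%, being 0% without replicate 2 or 3 by construction. No paired analysis between groups could be made, since the replicates formed 1 group. Differences between sets of peaks were taken within each replicate throughout. Depth, with 64.2% of called sites at 1 call, limits every statement on single CpG sites, and 1 mouse allows none on differences between animals.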
